A study of Mus musculus with 20 samples.

Results

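The genes described here encode the proteins of the cytosolic ribosome. They were taken as every gene whose symbol begins with Rpl or Rps followed by a digit, together with Rpsa, Rplp0, Rplp1 and Rplp2, leaving out the ribosomal S6 kinases and pseudogenes, and each gene was read from the brightest array probe set that names it alone. The rule found 49 of the 18193 genes measured in this way. Of these, 43 are ribosomal proteins in the strict sense, 21 of the 31 known proteins of the small subunit and 22 of the 46 of the large subunit. A further 5 are paralogs, Rpl22l1, Rpl39l, Rpl3l, Rpl7l1 and Rps27l, and 1 is Rps19bp1, whose symbol fits the rule but whose product binds the protein RPS19 and is no part of the ribosome. Another 27 ribosomal proteins were named only on probe sets that also name other genes, mostly pseudogenes, and are given at the end.

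A cytosolic ribosome is built from ribosomal RNAs and one copy of most ribosomal proteins in each subunit, and a cell therefore needs the proteins in nearly equal amounts. Their mRNAs are short, stable and among the most abundant in liver, and most begin with a C followed by a run of pyrimidines, the 5′ terminal oligopyrimidine (TOP) tract, through which the kinase mTOR and the protein LARP1 control their translation. The mRNA level measured here is separate from that translational control.

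Liver RNA of 20 male C57BL/6J mice was hybridized to Affymetrix arrays that cover the mouse genome, with 1 array for each mouse and 5 mice per group. Feeding began at 7 weeks of age, and for 12 weeks the mice ate 1 of 4 diets: the CL diet supplemented with 0.02% astaxanthin (CL + AX) or 0.02% vitamin E (CL + VE), the CL diet alone, or normal chow (NC, CRF-1). The CL diet, which is used to induce steatohepatitis, drew 60% of its calories from fat and held cholesterol (1.25%) and the bile salt sodium cholate (0.5%). All mice fasted for 2 h before the liver was taken. Fat, cholesterol and cholate were changed together, so their effects cannot be told apart, and the RNA came from whole liver.

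The sequences at the gene starts show the feature that most of these genes share and that the selection did not use. RefSeq promoter windows on GRCm38.p6, which hold 250 bases before and 50 bases after each annotated start, were matched for 44 of the 49 members. A run of at least 8 uninterrupted C and T letters that begins with C was found on the coding strand between 25 bases before and 50 bases after the start in 33 of these 44 (75.0%), against 4353 of 17492 protein-coding genes with a window (24.9%). The longest run had a median of 9 bases in the members and 6 bases in all genes. Annotated starts are not measured cap sites, so a run in this window need not begin the mRNA. The stretches of 30 bases below belong to the members that the diet comparisons turn on, with the longest such run in capitals.
Rpsa, chr9:120127775-120127804, plus strand: ccggccgcccgtCCTTTCgcgctacccggg
Rps15, chr10:80292447-80292476, plus strand: cagcccgtaCTTCCTTTTCCgagtaaccgc
Rpl37, chr15:5116632-5116661, plus strand: gcgggggtgCTTTCTCTTCCggtctctttg
Rpl13a, chr7:45128722-45128751, minus strand: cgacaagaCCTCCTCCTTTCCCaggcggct
Rps28, chr17:33824565-33824594, minus strand: tgtcccgaggattCCTgggtaccgcgtgcg
Rps24, chr14:24490698-24490727, plus strand: ttggtcggcagtgagcggtCCTCTTTTCCT
Rps4x, chrX:102189347-102189376, minus strand: gcgcgcgcgcagCCTCCgaccctaatttct
Rpl27a, chr7:109519186-109519215, plus strand: gtgagCTCCTCCCTTTTCCCTTTCTgccac
The runs of Rps15, Rpl37, Rpl13a, Rps24 and Rpl27a had 11, 11, 14, 11 and 20 bases. Those of Rpsa, Rps4x and Rps28 had 6, 5 and 3 bases and stayed below the minimum. The ETS-factor motif CCGGAAG, searched on both strands over the whole window, was present in 21 of the 44 members (47.7%) and in 12.9% of protein-coding genes, and the YY1 motif AAGATGGC in 4 members (9.09%) and 3.57% of protein-coding genes. The E-box CACGTG was found in 9.09% of the members and 8.91% of protein-coding genes, and TATAAA in 13.6% and 14.8%. CCGGAAG and AAGATGGC can overlap through their shared AAG. A match describes these letters and is no measured binding site.

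Most members gave strong and even signals. After quantile normalization 39 of the 49 had a mean log2 signal at or above 8. The other 10 (Rpl12, Rpl14, Rpl27a, Rpl39, Rpl39l, Rpl3l, Rps16, Rps19bp1, Rps25 and Rps27) were dimmer, down to -1.47 for Rps16. Their values are given with the limit that signals at this level are less precise. Ribosomal protein mRNAs are abundant in liver, so a dim probe set may not report the main mRNA of its gene, which was not tested. Rpl12, Rpl14, Rpl27a, Rpl39, Rps16, Rps25 and Rps27 also had probe sets shared with other genes, whose values are not given here. The median within-group SD of a member was 0.093 on the log2 scale, against 0.112 for the 704 genes with a mean log2 signal at or above 11 and 0.367 for all genes. The median standard error of a member's fold change was 0.065, so differences much smaller than those named below could not be detected with 5 mice a group. Of the members, 14 were read from probe sets whose identifier ends in _x_at, which can also bind related sequences, and ribosomal proteins have many processed pseudogenes, so part of a signal may come from near-identical copies.

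The deposited signals were not on a common scale across arrays, and this touches every result below. The median deposited signal of an array was 26.4 to 27.7 in CL + AX, 17.0 to 20.7 in CL + VE, 19.4 to 24.8 in CL and 13.0 to 18.8 in NC. The 3′ to 5′ log2 ratio of Gapdh was -0.14 ± 0.05 in CL + AX, -0.03 ± 0.12 in CL + VE, -0.17 ± 0.06 in CL and 0.57 ± 0.14 in NC (SD, n = 5 each), and the signal of the middle 18S rRNA control probe set was 11.96 ± 0.22, 11.43 ± 0.37, 11.84 ± 0.49 and 8.75 ± 0.60 on the log2 scale in the same groups. The same 3′ to 5′ ratio of the labelling spike Dap was 0.91 ± 0.10, 1.07 ± 0.43, 0.97 ± 0.16 and 2.96 ± 0.15 in these groups (SD). Every NC array lay above every array of the other diets, so this difference cannot be told apart from diet in comparisons with NC. The livers also differed in their cells. Of 15 macrophage markers 14 were higher in CL than in NC at an adjusted p under 0.05 (limma), where 12% of all genes were. So were 6 of 12 lymphocyte, 6 of 8 endothelial and 7 of 9 stellate cell markers. The smallest log2 fold change was 1.22 among the macrophage and 0.42 among the endothelial markers. It was -0.88 among the lymphocyte and -0.37 among the stellate cell markers. The summed signals were 10503 to 26918 in CL and 2034 to 5989 in NC for macrophages. The hepatocyte markers, among them Alb and Apoa1 with mean log2 signals of 13.4 and 13.9, summed to 100620 to 106858 in CL and 100977 to 108659 in NC. Of 11 hepatocyte markers 1 was higher and 2 were lower in CL than in NC by the same test, and with trimmed-mean scaling 0 were higher and 7 lower. In RNA from whole tissue, fewer cells of a type and less RNA per cell cannot be told apart. The part of RNA quality, of labelling and of cell makeup in the results below was not tested.

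**Figure D1:**
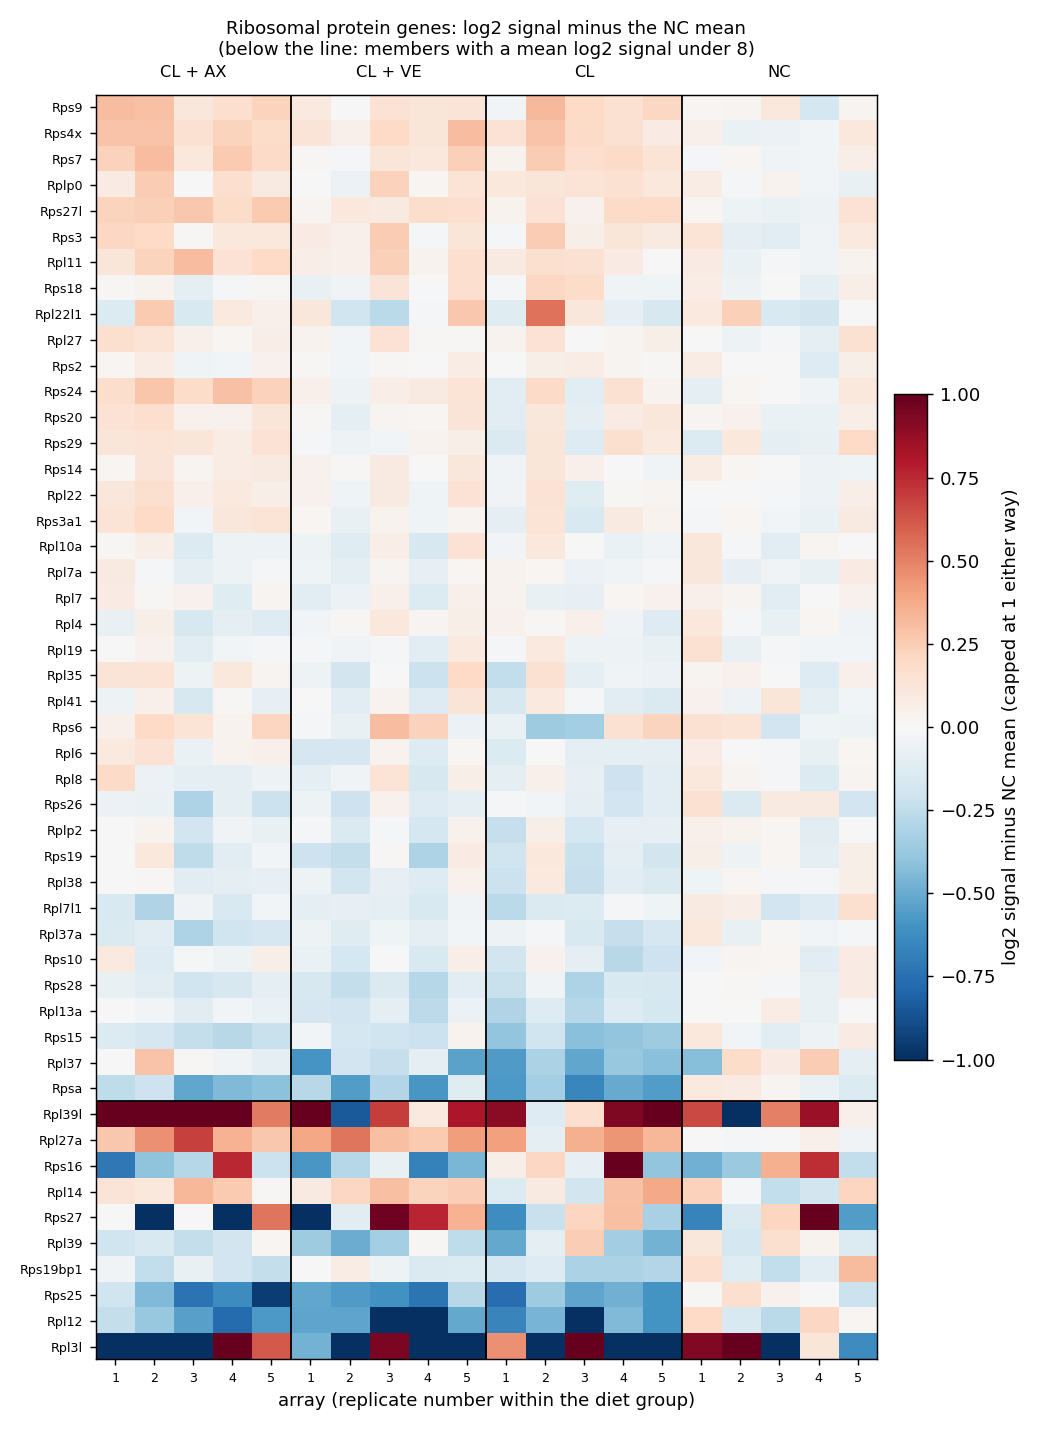
Heat map of the 49 members (down the page, ordered by their CL vs NC difference, the 10 dim members under the line) on the 20 arrays (across, 5 per diet), as quantile-normalized log2 signal minus the mean of the 5 NC arrays. Most cells of the bright members lie near 0, and Rpsa and Rps15 at the foot of that block are lower on the CL arrays than on every NC array.

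The first question was whether the CL diet changed the ribosomal protein mRNAs. With quantile normalization 9 of the 49 passed the test, a share near that of all genes. The numbers called in each direction depended on the scaling, as described further on. In CL compared with NC, 2 members were higher and 7 were lower past the adjusted p (limma, Benjamini-Hochberg over all probe sets), or 4.08% and 14.3% of the 49. Over all 18193 genes 12% were higher and 11.3% lower, and over the genes with a mean log2 signal at or above 11 the shares were 19.9% and 15.3%. The 7 that fell were Rpsa, Rps15, Rps25, Rps28, Rpl37, Rpl12 and Rpl13a, and the 2 that rose were Rps4x and Rpl27a. The median log2 fold change of the 49 was -0.01, with 21 above 0 and 28 below 0, and that of all genes was -0.04. Groups did not overlap for 5 lower members (Rpsa, Rps15, Rps25, Rpl12 and Rpl13a) and 1 higher member (Rplp0), where 7.85% and 8.07% of all genes did not overlap in each direction. Among the genes with a mean log2 signal at or above 11 these shares were 11.6% and 14.6%.

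Rpsa, a small-subunit protein also known as the laminin receptor, changed most clearly. Its log2 signal was 11.65, 11.89, 11.58, 11.73 and 11.67 in CL, against 12.33, 12.31, 12.26, 12.16 and 12.09 in NC. Every CL array lay below every NC array. The log2 fold change was -0.53 ± 0.09 (SE; limma, adjusted p = 0.000162), or 0.694 of the NC level. The second probe set of Rpsa was too dim to report on it, with a mean log2 signal of 0.41. Rps15, a protein of the small-subunit head, had 11.65, 11.85, 11.63, 11.65 and 11.69 in CL, against 12.15, 12.02, 11.94, 12.00 and 12.13 in NC. These groups did not overlap either, and the difference was -0.35 ± 0.06 (SE, limma adjusted p = 0.000368). A second bright probe set of Rps15, with a mean log2 signal of 11.75, showed 0.04 ± 0.07 in the same comparison (limma adjusted p = 0.745), so the call rests on which of the 2 is read.

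Among the large-subunit proteins, Rpl37 had 8.78, 9.03, 8.83, 8.97 and 8.93 in CL, against 8.92, 9.53, 9.43, 9.60 and 9.25 in NC. The groups overlapped through the first NC mouse. The fold change was -0.44 ± 0.12 (SE, limma adjusted p = 0.0102). Rpl13a, which in human monocytic cells can leave the ribosome and silence inflammatory mRNAs, had 12.55, 12.72, 12.56, 12.72 and 12.67 in CL, against 12.85, 12.85, 12.92, 12.77 and 12.85 in NC. All CL values lay below all NC values, by a small step of -0.20 ± 0.05 (SE, limma adjusted p = 0.0112). Its 3 other probe sets gave -0.11, -0.21 and -0.17, none past the adjusted p.

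Rps28, a small-subunit protein that lies near the exit of the mRNA channel, had 12.83, 13.02, 12.74, 12.90 and 12.89 in CL, against 13.05, 13.06, 13.03, 12.98 and 13.14 in NC. The second CL mouse reached into the NC range. The fold change was -0.18 ± 0.06 (SE, limma adjusted p = 0.0335), and both other probe sets of Rps28 fell by 0.21 (limma adjusted p = 0.014 each). The 2 remaining falls were on dim probe sets. Rps25, a small-subunit protein used in internal ribosome entry, had 5.77, 6.18, 6.01, 6.06 and 5.94 in CL, against 6.55, 6.70, 6.58, 6.53 and 6.32 in NC, with no overlap and a difference of -0.54 ± 0.14 (SE, limma adjusted p = 0.00736). Rpl12, at the base of the P stalk, had 5.42, 5.61, 4.92, 5.64 and 5.48 in CL, against 6.28, 5.93, 5.81, 6.29 and 6.10 in NC. These values did not overlap, and the difference was -0.66 ± 0.20 (SE, limma adjusted p = 0.0263). In the 20 fits that left out 1 array, the call of Rps28 was lost in 7 and that of Rpl12 in 3.

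The 2 members that rose did so by little and close to the threshold. Rps4x, the X-linked small-subunit protein S4, had 12.49, 12.63, 12.54, 12.49 and 12.42 in CL, against 12.40, 12.27, 12.29, 12.32 and 12.45 in NC. The ranges overlapped, and the difference was 0.17 ± 0.06 (SE, limma adjusted p = 0.0478). Rpl27a, a large-subunit protein read from a dim probe set, had 7.73, 7.23, 7.68, 7.76 and 7.65 in CL, against 7.31, 7.31, 7.32, 7.37 and 7.29 in NC. Its second CL mouse lay below all NC mice and the other 4 above them, and the difference was 0.29 ± 0.10 (SE, limma adjusted p = 0.0491). Both calls were lost in most fits that left out 1 array, including arrays of the supplemented groups (15 of 20 fits for Rps4x and 18 of 20 for Rpl27a). Rplp0, the scaffold of the P stalk on which the acidic P proteins sit, had 12.53 to 12.57 in CL and 12.35 to 12.49 in NC without overlap, but its difference of 0.13 ± 0.06 (SE) missed the adjusted p (limma, 0.167). Rplp2, its acidic partner, stood at -0.10 ± 0.06 (SE, limma adjusted p = 0.315).

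**Figure D2:**
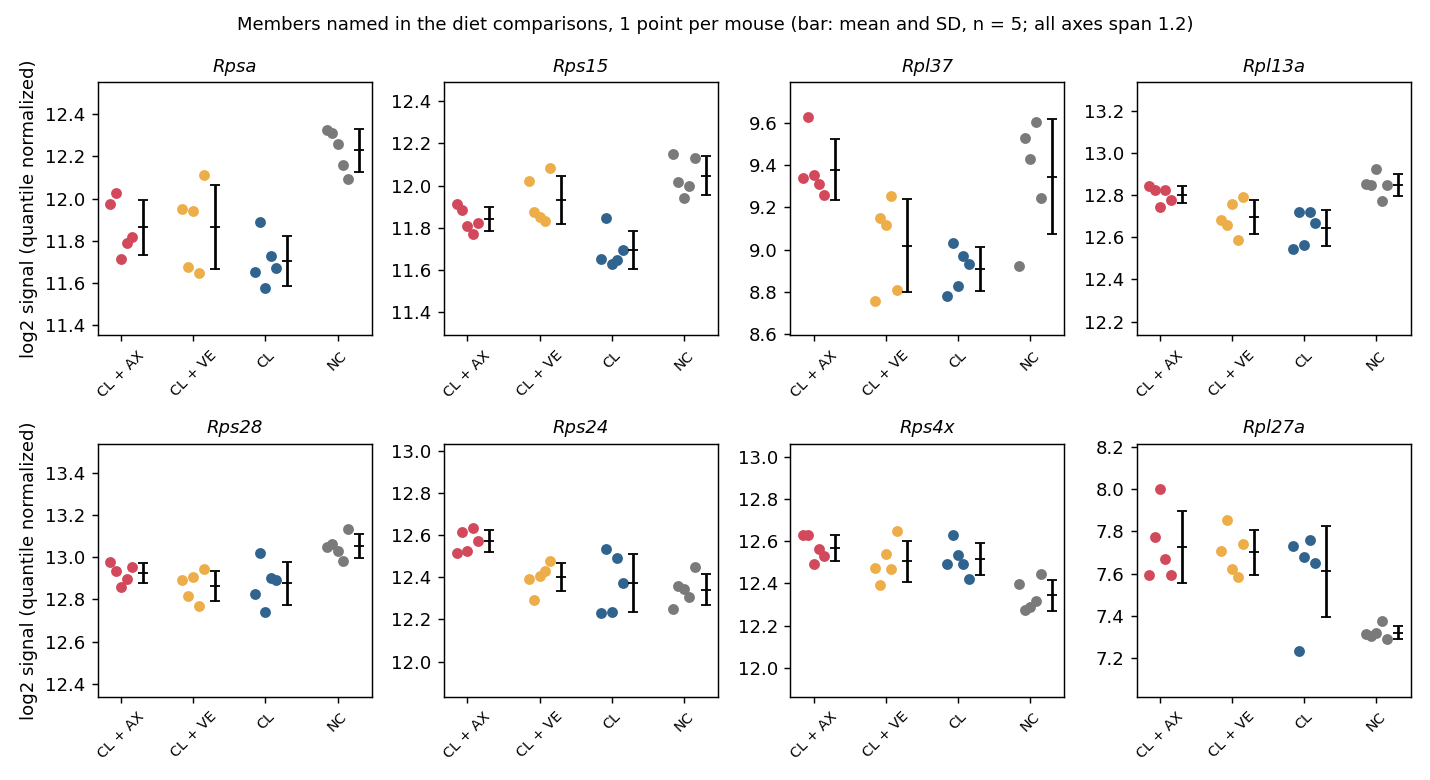
Quantile-normalized log2 signal of 8 members in the 4 diet groups, 1 point per mouse, with the mean and SD of 5 mice as a bar. Rpsa, Rps15 and Rpl13a show CL points below all NC points, Rpl37 and Rpl13a show CL + AX points above all CL points (for Rpl13a not under median centring), and Rps4x and Rpl27a are higher in CL, a direction that Rps4x loses under median centring and trimmed-mean scaling.

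Whether the group as a whole moved depended on how arrays were brought to a common level. Quantile normalization sets every array to the same distribution. It put the members' median log2 fold change 0.02 above that of all genes in CL vs NC. The median signal of the members on each array was still lower, at 11.92 to 12.00 in CL and 12.05 to 12.15 in NC, without overlap. With 1 factor per array (no scaling, median centring or trimmed-mean scaling) the members' median fold change lay 0.33 below that of all genes. The median of all genes was itself 0.39 with no scaling, -0.11 after median centring and 0.03 after trimmed-mean scaling. Against the genes with a mean log2 signal at or above 11 the members' median fold change was 0.02 lower under quantile normalization. It was 0.05 lower with 1 factor per array, so the members stayed close to other abundant mRNAs in every scaling. The split of higher against lower members in CL vs NC was 2 to 1 with no scaling, 0 to 37 with median centring, 1 to 30 with trimmed-mean scaling and 11 to 3 when each array was centred on the members themselves. Over all genes the corresponding lower shares were 1.17%, 15.2%, 10.2% and 5%, and the higher shares 28.2%, 9.37%, 15.2% and 17.5%. Rpsa was lower past the adjusted p in all 5 scalings, with fold changes of -0.38 to -0.93. Rps15 was lower in 4 of 5, the exception being the signals with no scaling (limma adjusted p = 0.18), and Rpl27a was higher in 4 of 5, the exception being median centring (limma adjusted p = 0.11). Rps4x turned to -0.26 under median centring and -0.12 under trimmed-mean scaling.

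**Figure D3:**
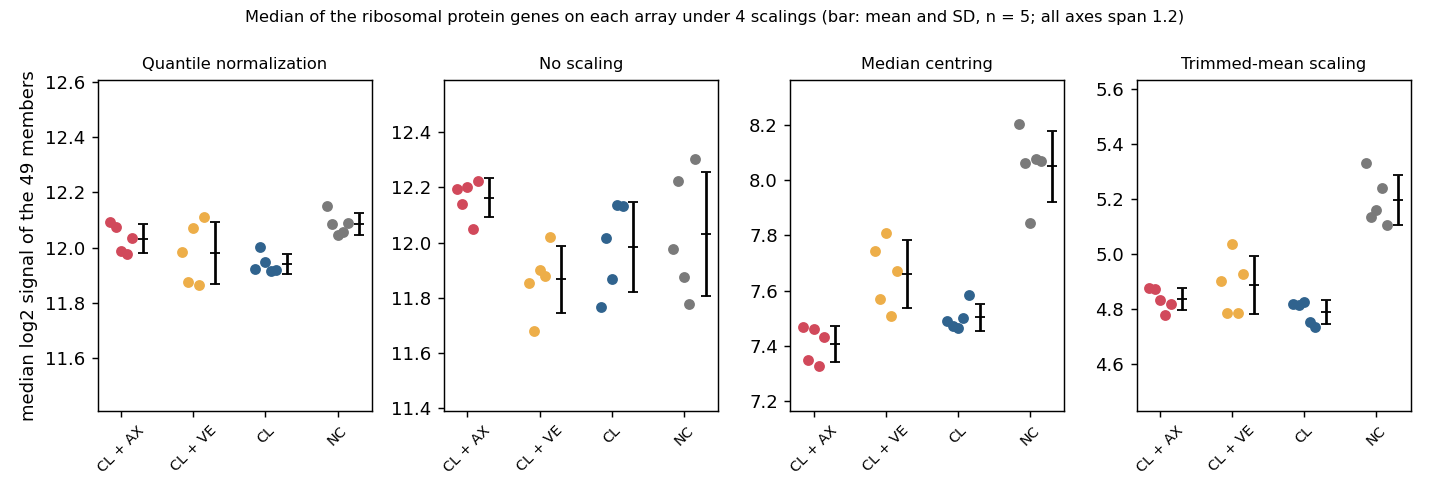
Median log2 signal of the 49 members on each array (points, 5 per diet, with mean and SD as a bar) under quantile normalization, no scaling, median centring and trimmed-mean scaling, each panel with its own level but the same span. The NC arrays average 8.05 against 7.50 for CL after median centring and 12.09 against 11.94 after quantile normalization. With no scaling NC and CL overlap, while every CL + AX array lies above every CL + VE array.

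The second question was what astaxanthin did on top of the CL diet. No member passed the adjusted p between CL + AX and CL, nor did any of the 18193 genes (limma, 0%), and the methods' test, which compares the 2 groups gene by gene with no shared variance, called 0 members after adjustment. An unadjusted p under 0.05 was reached by 6 members that were higher and 0 that were lower in CL + AX (limma), or 12.2% and 0%, where 4.03% and 4.02% of all genes and 4.97% and 7.67% of the genes with a mean log2 signal at or above 11 reached it. The 6 were Rpl37, Rps24, Rpl13a, Rpl6, Rps15 and Rps27l. The median log2 fold change of the 49 members was 0.06, with 35 above 0 and 14 below 0, against 0.01 for all genes. This split turned with the scaling: the members above 0 numbered 47 with no scaling, 32 with trimmed-mean scaling, 17 with centring on the members and 6 with median centring (median -0.13). With 1 factor per array the median lay 0.04 below that of all genes and under quantile normalization 0.05 above it, while against the genes with a mean log2 signal at or above 11 it was 0.08 higher in every scaling.

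Rpl37 had the smallest p of the members. Its log2 signal was 9.34, 9.63, 9.35, 9.31 and 9.26 in CL + AX, against 8.78, 9.03, 8.83, 8.97 and 8.93 in CL. Every CL + AX mouse lay above every CL mouse, with a difference of 0.47 ± 0.12 (SE), but the adjusted p was 0.315 (limma). Rpl13a was the other member without overlap, a pattern that 0.956% of all genes showed in this direction and 1.01% in the other, where 0 members did. Among the genes with a mean log2 signal at or above 11 the share was 1.28% in each direction. Rpl13a had 12.84, 12.82, 12.74, 12.82 and 12.78 in CL + AX, against 12.55, 12.72, 12.56, 12.72 and 12.67 in CL. The difference was 0.16 ± 0.05 (SE, limma adjusted p = 0.512) and became -0.03 under median centring.

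Rps24, a small-subunit protein mutated in some patients with Diamond-Blackfan anemia, had 12.52, 12.62, 12.52, 12.63 and 12.57 in CL + AX, against 12.23, 12.53, 12.23, 12.49 and 12.37 in CL. The lowest CL + AX mouse lay within the CL range. The difference was 0.20 ± 0.06 (SE, limma adjusted p = 0.47) and was -0.0035 under median centring. Rpsa, lowest in CL, had 11.98, 12.02, 11.71, 11.79 and 11.82 in CL + AX, overlapped with CL and stood at 0.16 ± 0.09 (SE, limma adjusted p = 0.745). Rps6, the ribosomal substrate of the S6 kinases, stood at 0.20 ± 0.11 (SE, limma adjusted p = 0.741). Leaving out Rpl37, the 95% intervals of the members with a mean log2 signal at or above 8 ran from -0.30 to 0.43 at their widest. Changes inside these bounds were not excluded for single members, and the bounds hold only for the probe sets read. Another bright probe set of Rps9 stood at 0.65 ± 0.14 (SE, limma adjusted p = 0.254), against 0.05 on the one read. For Rpl27 another stood at 0.39 ± 0.08 (SE, limma adjusted p = 0.254), against 0.04.

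**Figure D4:**
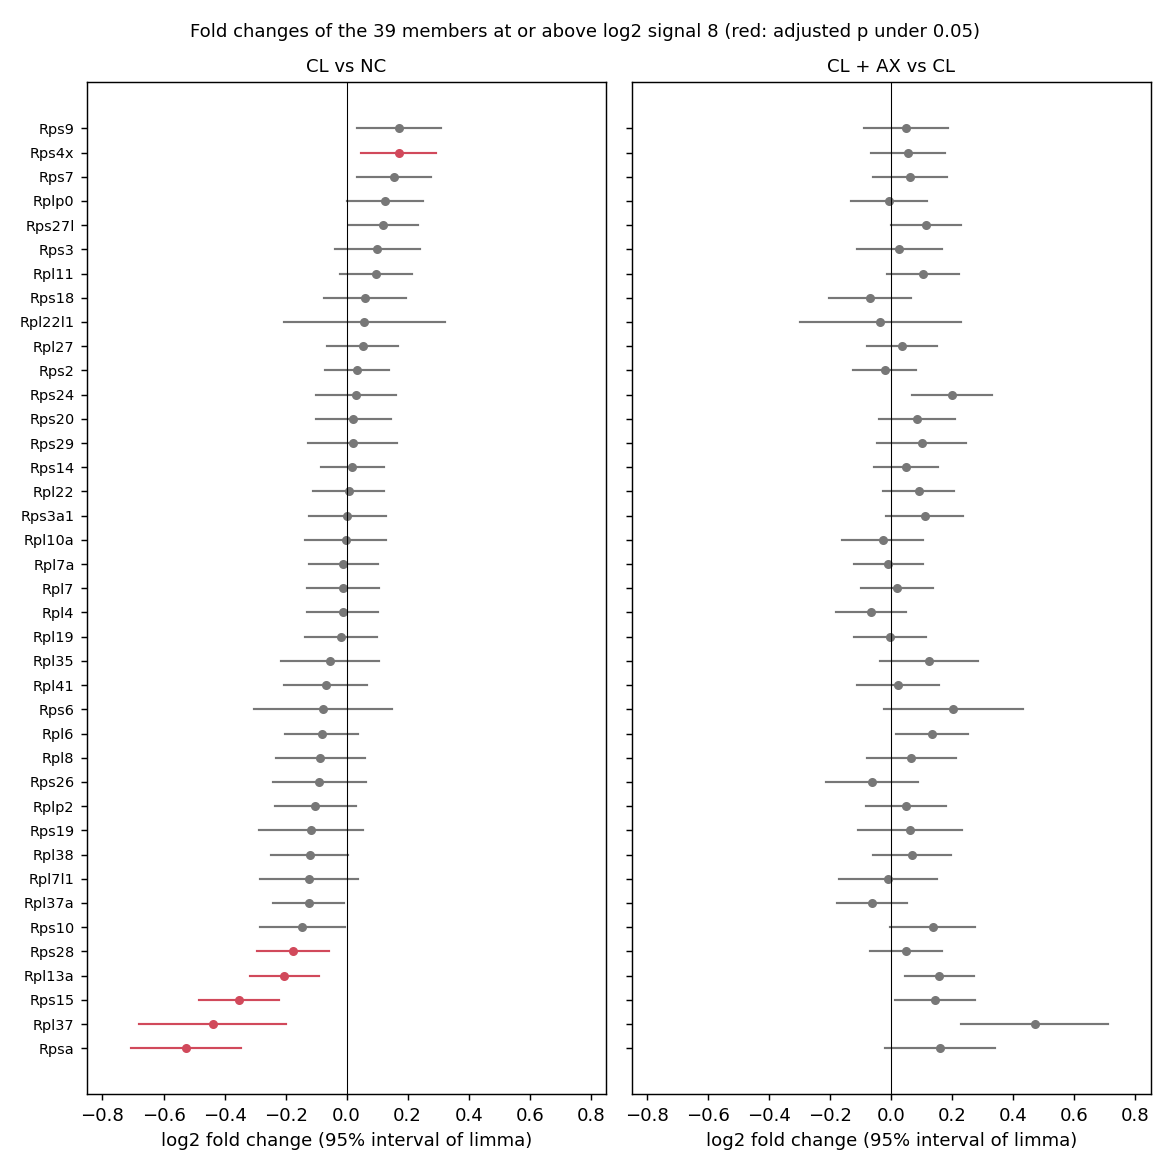
Log2 fold change with its 95% interval (limma) of the 39 members with a mean log2 signal at or above 8, on the left for CL vs NC and on the right for CL + AX vs CL, members in the same order down the page and adjusted p under 0.05 in red. In CL vs NC, 5 members are red on the lower side and 1 on the higher side, and none is red for CL + AX vs CL; both panels use the same CL arrays, and the Rps4x point turns negative under median centring and trimmed-mean scaling.

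Vitamin E was added to the CL diet at the same 0.02%. Between CL + VE and CL no member and no gene passed the adjusted p (limma, 0%; the methods' test called 0 members as well). With no adjustment, 1 member was higher and 0 were lower at p under 0.05 (limma), against 4.85% and 2.7% of all genes. Groups overlapped for all 49 members in both directions, where 1.04% and 0.555% of all genes did not. That member was Rps15, with 12.02, 11.87, 11.85, 11.83 and 12.08 in CL + VE, against 11.65, 11.85, 11.63, 11.65 and 11.69 in CL. The second CL mouse reached into the CL + VE range, and the difference was 0.24 ± 0.06 (SE, limma adjusted p = 0.272). Rpsa had 11.95, 11.67, 11.94, 11.65 and 12.11 in CL + VE and stood at 0.16 ± 0.09 (SE, limma adjusted p = 0.704). The median over the 49 members was 0.003, with 26 above 0 and 23 below 0 under quantile normalization. The members above 0 numbered 2 with no scaling (median -0.15), 16 with centring on the members, 42 with trimmed-mean scaling and 44 with median centring (median 0.13). This comparison and the preceding one share the 5 CL arrays.

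Astaxanthin and vitamin E were also set against each other. No member and no gene passed the adjusted p between CL + AX and CL + VE (limma, 0%; 0 members by the methods' test). At an unadjusted p under 0.05, 5 members were higher in CL + AX (Rpl37, Rps24, Rpl6, Rps27l and Rps7) and 1 was lower (Rpl37a), against 3.66% and 6.59% of all genes. Among the genes with a mean log2 signal at or above 11 the shares were 6.11% and 13.8%. Groups did not overlap for 4 higher members (Rpl37, Rps24, Rps27l and Rps29) and 0 lower ones, with 0.951% and 1.58% in all genes. For the genes at or above a mean log2 signal of 11 these were 3.27% and 4.26%. Rpl37 had 9.34, 9.63, 9.35, 9.31 and 9.26 in CL + AX, against 8.76, 9.15, 9.12, 9.25 and 8.81 in CL + VE. The highest CL + VE mouse came within 0.01 of the lowest CL + AX mouse, and the difference was 0.36 ± 0.12 (SE, limma adjusted p = 0.302). Rps24 had 12.39, 12.29, 12.41, 12.43 and 12.48 in CL + VE, all below CL + AX, with a difference of 0.17 ± 0.06 (SE, limma adjusted p = 0.391) that was -0.16 under median centring. Rpl37a, a large-subunit zinc-finger protein, stood at -0.12 ± 0.06 (SE, limma adjusted p = 0.527) and at 0.096 with no scaling. The split of higher against lower members was 2 to 0 with no scaling (3.75% and 0.0165% of all genes), and 0 to 15 with median centring (0.055% and 6.11%).

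Both supplemented groups were compared with chow as well, using the same 5 NC arrays as the first comparison. In CL + AX against NC 7 members were higher and 4 lower past the adjusted p (limma), where 12% and 11.3% of all genes were. Among the genes with a mean log2 signal at or above 11 the shares were 21.4% and 19.2%. The 7 were Rps27l, Rpl27a, Rps4x, Rps7, Rps24, Rpl11 and Rps9, with fold changes of 0.20 to 0.41. None of the 7 overlapped with NC, where 8.32% of all genes and 16.6% of those at or above a mean log2 signal of 11 did not. Rps27l, a paralog of Rps27 that p53 can induce, had 12.52, 12.54, 12.57, 12.48 and 12.55 in CL + AX, against 12.32, 12.25, 12.23, 12.25 and 12.44 in NC. The highest NC mouse stayed below the lowest CL + AX mouse, with a difference of 0.23 ± 0.05 (SE, limma adjusted p = 0.00405). Its probe set ends in _x_at, and Rps27 itself was read from a dim probe set that varied widely within groups, so the pair cannot be separated with confidence here. Rpl11, a large-subunit protein that can bind MDM2 when it is free of the ribosome, had 11.95, 12.05, 12.14, 11.98 and 12.03 in CL + AX, against 11.91, 11.77, 11.82, 11.79 and 11.87 in NC, without overlap and with a difference of 0.20 ± 0.06 (SE, limma adjusted p = 0.0157). All these rises apart from that of Rpl27a turned negative under median centring (-0.33 to -0.40) and trimmed-mean scaling (-0.044 to -0.11).

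The 4 members that were lower in CL + AX than in NC were Rps25, Rpsa, Rps15 and Rpl37a. Rpsa differed by -0.37 ± 0.09 (SE, limma adjusted p = 0.00455) and Rps15 by -0.21 ± 0.06 (SE, limma adjusted p = 0.025), both without overlap. Rpl37a had 12.55, 12.57, 12.38, 12.49 and 12.52 in CL + AX, against 12.80, 12.62, 12.70, 12.66 and 12.67 in NC, with no overlap and -0.19 ± 0.06 (SE, limma adjusted p = 0.0217). Rps28 did not overlap with NC either but missed the adjusted p (-0.13 ± 0.06, SE, limma adjusted p = 0.137). That makes 4 lower members without overlap, where 8.58% of all genes did not overlap in this direction. Among the genes with a mean log2 signal at or above 11 this share was 17.6%. The split of 7 to 4 became 15 to 0 with no scaling (42.7% and 1.15% of all genes), 0 to 37 with median centring (7.56% and 21.3%), 2 to 27 with trimmed-mean scaling (16.8% and 10.2%) and 8 to 2 with centring on the members (13% and 7.62%). Without the first NC mouse, the calls of Rps15 and Rpl37a were lost and 2 lower members remained. Over the 20 fits that left out 1 array, the calls of Rps15, Rps9 and Rpl37a were lost in 4, 3 and 2.

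In CL + VE against NC 1 member was higher (Rpl27a) and 4 were lower (Rpl12, Rpsa, Rps25 and Rps28), against 10.2% and 7.27% of all genes (limma). Among the genes with a mean log2 signal at or above 11 the shares were 15.8% and 10.1%. Rpsa differed by -0.36 ± 0.09 (SE, limma adjusted p = 0.0065), with the fifth CL + VE mouse inside the NC range. Rpl27a had 7.71, 7.86, 7.62, 7.58 and 7.74 in CL + VE, against 7.31, 7.31, 7.32, 7.37 and 7.29 in NC, without overlap and with a difference of 0.38 ± 0.10 (SE, limma adjusted p = 0.0135). Groups did not overlap for 1 higher and 3 lower members (Rpl12, Rps25 and Rps28), where 7.04% and 5.22% of all genes did not. For the genes at or above a mean log2 signal of 11 these shares were 12.4% and 8.38%. The split of 1 to 4 became 1 to 1 with no scaling (12% and 1.57% of all genes), 1 to 29 with median centring (8.88% and 8.68%), 1 to 22 with trimmed-mean scaling (12.8% and 6.86%) and 6 to 3 with centring on the members (14.1% and 3.46%). Without the fifth NC mouse 2 members were higher. The call of Rps28 was lost in 5 of the 20 fits that left out 1 array.

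Across all 4 diets, 11 of the 49 members (22.4%) passed the adjusted p of the moderated F-test, and 22% of all genes did. Among the genes with a mean log2 signal at or above 11 the share was 36.5%. The 11 members were led by Rpsa, Rps15, Rps25, Rpl37 and Rpl27a (limma adjusted p of 0.000886, 0.00205, 0.00794, 0.00825 and 0.0173).

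The paralogs and the other roles were also read in CL vs NC. Rps27l stood at 0.12 ± 0.06 and Rpl7l1 at -0.12 ± 0.08 (SE), neither past the adjusted p (limma, 0.147 and 0.319). Rpl22l1, the paralog of Rpl22, ranged from 9.79 to 10.50 in CL and from 9.77 to 10.19 in NC. Rpl39l and Rpl3l, which are best known from testis and from muscle, were dim, with mean log2 signals of 2.46 and 1.52. They scattered widely, with within-group SDs of 0.88 and 1.43. Rps19bp1 was at 7.57 to 7.75 in CL and 7.64 to 8.20 in NC (-0.25 ± 0.10, SE, limma adjusted p = 0.0836). Of 11 measured genes mutated in Diamond-Blackfan anemia, a failure of red cell production caused by shortage of a ribosomal protein, 0 were higher and 1 (Rps28) was lower past the adjusted p of limma. At an unadjusted p under 0.05, which 17.5% and 17.8% of all genes reached in each direction, these were 1 and 2. With trimmed-mean scaling 0 were higher and 8 of the 11 lower past the adjusted p (limma), where 15.2% and 10.2% of all genes were. Fau, whose product is cleaved to a small-subunit protein and which the symbol rule leaves out, stood at -0.15 ± 0.06 (SE, limma adjusted p = 0.074).

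Other genes of the ribosome and of translation were read from lists beside the members. Of 83 measured genes of ribosome biogenesis, 1 was higher and 28 were lower in CL than in NC, with a median of -0.21. Among the lowest p values were Polr1c, a subunit of RNA polymerases I and III (-0.64 ± 0.08, SE, limma adjusted p = 6.67e-06), Nop2, an rRNA methyltransferase (-0.88 ± 0.12, SE, limma adjusted p = 2.26e-05), and Tsr1, a small-subunit maturation factor (-0.67 ± 0.10, SE, limma adjusted p = 3.89e-05). Of 76 proteins of the mitochondrial ribosome, 0 were higher and 35 lower (limma, adjusted p), with 2 and 43 at an unadjusted p of less than 0.05 and a median of -0.19. These counts became 3 and 20 for biogenesis and 2 and 37 for mitochondrial ribosomal proteins with trimmed-mean scaling. Of 5 chaperones of ribosomal proteins, 1 fell, Grwd1 (-0.59 ± 0.12, SE, limma adjusted p = 0.0014), and 0 rose.

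Of 9 elongation and release factors, Gspt1, a release factor, rose by 0.40 ± 0.09 (SE, limma adjusted p = 0.00421), and Eef1d and Eef2 fell by 0.40 ± 0.06 and 0.36 ± 0.06 (SE, limma adjusted p = 2.74e-05 and 0.000134). Of 16 other genes with TOP mRNAs, 0 rose and 4 fell past the adjusted p of limma (3 and 5 at an unadjusted p under 0.05), among them Eef1d, Eef2 and Eif4b, an initiation factor (-0.34 ± 0.07, SE, limma adjusted p = 0.00107). With trimmed-mean scaling the higher and lower counts became 1 and 5 for the elongation and release factors and 0 and 9 for the other TOP genes. Of 18 regulators of ribosomal protein synthesis, 2 rose and 3 fell. Larp1, the TOP-binding repressor, fell by 0.33 ± 0.06 (SE, limma adjusted p = 0.000321). Eif4ebp1, an mTOR substrate that holds back cap-dependent initiation, fell by 0.42 ± 0.09 (SE, limma adjusted p = 0.00183), and Rptor, the scaffold of mTOR complex 1, by 0.46 ± 0.11 (SE, limma adjusted p = 0.00671). Yy1, a transcription factor, rose by 0.29 ± 0.08 (SE, limma adjusted p = 0.0156). As background for these lists, 12% of all genes rose and 11.3% fell, or 15.2% and 10.2% with trimmed-mean scaling. No gene of the lists passed the adjusted p between CL + AX and CL.

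The 27 ribosomal proteins whose probe sets also name other genes were read from the brightest of these probe sets. In CL vs NC 3 were higher (Rpl32, Rpl34 and Rpl5) and 1 was lower (Rpl23) past the adjusted p of limma, where 12% and 11.3% of all genes were. Their median was -0.03 and their range -0.28 to 0.24. Rpl5, which with Rpl11 carries the 5S rRNA into the ribosome, differed by 0.18 ± 0.06 (SE, limma adjusted p = 0.0424). For Rpl34 a second shared probe set went the other way, at -0.27 ± 0.06 (SE, limma adjusted p = 0.00302), beside 0.17 ± 0.06 (SE, limma adjusted p = 0.042) on the brightest. For Rpl23 the brightest gave -0.28 ± 0.07 (SE, limma adjusted p = 0.0097) and the next 2 gave -0.0022 and 0.099. In CL + AX vs CL their median was 0.07 with 0 past the adjusted p of limma. Among the members, 24 had 56 further probe sets of their own. In CL vs NC 29 of these had the sign of the brightest one. Past the adjusted p of limma 4 were higher and 6 lower, where 12% and 11.3% of all genes were. The higher ones were of Rpl7 (0.48 and 0.19), Rps18 (0.57) and Rpl35 (0.28). The lower ones were of Rpl22 (-0.54), Rpl27 (-0.37), Rps3 (-0.33), Rps10 (-0.20) and Rps28. Apart from Rps28, these members were not called on the probe sets read, which gave -0.01, 0.06, -0.06, 0.01, 0.05, 0.10 and -0.14 in this order. For these genes the call therefore depended on the probe set. In CL + AX vs CL 46 of the 56 had the sign of the brightest one, and 0 passed the adjusted p of limma.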

How the data were processed

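The authors hybridized biotin-labelled aRNA from each liver to 1 array and computed MAS5 signals. The deposited table holds linear intensity values for 45101 probe sets, from 0.0139 to 18757, with no common scaling and no detection calls used here. After removal of 64 control probe sets, log2 signals of 45037 were quantile normalized and fitted in R 4.3.3 with limma 3.58.1 (1 model of 4 groups, 16 residual degrees of freedom, variance prior with a trend), with Benjamini-Hochberg adjustment over all probe sets at 0.05. Genes came from the platform annotation, of which 34945 probe sets name 1 gene. Named members were those past the adjusted p (at most 10 rises and 10 falls without overlap and 4 more), or the 4 smallest p in each direction, with paralogs, stalk and 5S proteins and up to 3 genes per other list. The members and lists were chosen with earlier results of these data known. The fit was tested on simulated data. Labels do not state separate cages or batches. The methods' test was the t-test of Welch, run on the quantile-normalized signals without the preceding ANOVA of the methods. Besides it, 13 other settings (2 chosen after seeing the data) and each array left out were tried. No per-sample column was left unused.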

Additional observations from a re-analysis of the deposited data

Results flagged for a closer look

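On 6 occasions a mouse stood far from the other 4 of its group for a member, where 9.8 of the 196 groups checked would be singled out by chance at about 1 in 20. The values are quantile-normalized log2 signals. Rpl37 in CL + AX replicate 2 was 9.63, against 9.26 to 9.35 in the other 4, and Rpl8 in CL + AX replicate 1 was 12.09, against 11.81 to 11.86. Rpl27a in CL replicate 2 was 7.23, against 7.65 to 7.76, and this is the CL mouse that fell below all NC mice for that gene. Rpl19 in NC replicate 1 was 12.40, against 12.18 to 12.23, Rpl35 in NC replicate 4 was 11.91, against 12.05 to 12.09, and Rpl39l in NC replicate 2 was -0.24, against 1.88 to 2.70.

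A signal also appeared among the control probe sets, which no comparison used. The 18S rRNA control was higher on every CL array than on every NC array for its 3′ probe set, by 2.36 on the log2 scale, and for its middle probe set, by 3.08, while the 5′ probe set overlapped (11.50 to 13.09 in CL and 9.37 to 12.02 in NC). Its part in the members' differences was not tested.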

How the results depend on the processing

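The 5 arrays a group, the dim probe sets of 10 members and the lack of a common scaling in the deposited signals limit these results, and the scaling mattered most. In CL vs NC the number of higher and lower members was 2 and 7, and it became 0 and 37 after median centring, 1 and 30 after trimmed-mean scaling, 11 and 3 with ribosomal-protein centring, and 1 lower with no scaling. The members' median fold change moved to -0.44, -0.30, 0.13 and 0.061 under these 4 settings. The higher count was 0 without the trend in the variance prior, with only the 2 groups in the fit and with the methods' t-test (which called 4 lower), 1 with a pseudocount of 1 or with all probe sets of a gene averaged (median -0.082), and 4 with a filter on dim probe sets. Without probe sets ending in _x_at or _s_at the median was -0.079. Among members at or above log2 signal 8, a limit chosen after seeing the data, 1 was higher. Leaving out 1 array gave 0 to 2 higher members, with a changed count in 18 of 20 such fits, and 5 to 8 lower members.

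In CL + AX vs CL and CL + VE vs CL no setting called a member. The median was 0.14, -0.13, 0.010 and -0.029 in CL + AX vs CL with no scaling, median centring, trimmed-mean scaling and ribosomal-protein centring, and -0.15 and 0.13 in CL + VE vs CL with no scaling and median centring. In CL + AX vs CL + VE, no scaling gave 2 higher members and a median of 0.29, median centring 15 lower and -0.26, and trimmed-mean scaling a median of -0.054.

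In CL + AX vs NC the counts of 7 higher and 4 lower became 15 and 0 (median 0.24) with no scaling, 0 and 37 (median -0.53) after median centring, 2 and 27 (median -0.24) after trimmed-mean scaling, 2 and 2 without the trend, 2 lower with averaged probe sets and 2 lower with ribosomal-protein centring (median 0.044). In CL + VE vs NC the counts of 1 higher and 4 lower became 1 lower with no scaling, 29 lower (median -0.30) after median centring, 22 lower (median -0.22) after trimmed-mean scaling, 6 higher (median 0.086) with ribosomal-protein centring, 2 higher with the filter on dim probe sets and 1 lower with the methods' t-test. Among members at or above log2 signal 8 they were 0 and 2. Leaving out 1 array gave 2 to 4 lower members in CL + AX vs NC and 1 to 2 higher ones in CL + VE vs NC.

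Single members that changed sign were as follows. With median centring, Rps4x was -0.26 in CL vs NC, Rps24, Rpl13a and Rpl6 were -0.0035, -0.027 and -0.054 in CL + AX vs CL, Rps24, Rpl6 and Rps27l were -0.16, -0.18 and -0.20 in CL + AX vs CL + VE, and Rpl11, Rps24, Rps27l, Rps4x, Rps7 and Rps9 were -0.37, -0.38, -0.38, -0.40, -0.39 and -0.33 in CL + AX vs NC. With trimmed-mean scaling, Rps4x was -0.12 in CL vs NC, Rps27l was -0.0020 in CL + AX vs CL + VE, and the same 6 were -0.084, -0.098, -0.089, -0.11, -0.099 and -0.044 in CL + AX vs NC. With no scaling, Rpl37a was 0.096 in CL + AX vs CL + VE and Rps25 0.13 in CL + AX vs NC. With averaged probe sets, Rpl27a was -0.38 and Rps4x -0.098 in CL vs NC and Rpl27a -0.27 in CL + VE vs NC. Without probe sets ending in _x_at or _s_at, Rps24 was -0.10 and Rps9 -0.54 in CL + AX vs NC. The cause was not tested.

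The replicate numbers did not pair the mice: in 30 pairs of same-numbered arrays the correlation of deviations ran from -0.030 to 0.040. With the replicate block the 2 higher members in CL vs NC became 0, with adjusted p of 0.071 for Rpl27a and 0.069 for Rps4x (limma). The lower members in CL + VE vs NC became 5, against 4 without the block, and the counts in the other comparisons did not change.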
